A study of Mus musculus with 6 samples.

Results

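The genes described here encode the proteins of the mitochondrial ribosome and were taken from the count table by symbol, as every row named Mrpl or Mrps followed by a number, pseudogene rows left out. The rule found 77 genes among 26971 features, 48 Mrpl genes named for the large subunit and 29 Mrps genes named for the small subunit. All 77 passed the filter for testing, which asked for 10 or more counts in 3 or more libraries and kept 14398 features. The RNA came from renal cortex of C57BL/6 males 1 day after surgery. The congested group, labelled Cong_IRI and IRI with IVCC, had renal congestion and ischemia-reperfusion injury (IRI), and the IRI group, labelled CLK_IRI, had the injury without congestion. Each group had 3 libraries, and the label spells out neither IVCC nor CLK. All 6 kidneys had been injured, so no value here is set against an uninjured kidney. Whether each library is a separate animal is not stated in the labels, and p-values thus describe only how these libraries spread.

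Mitochondria hold their own ribosomes, which translate the few respiratory chain proteins that mitochondrial DNA still encodes. Every protein of these ribosomes is encoded in the nucleus, made in the cytosol and imported. The large subunit carries the peptidyl transferase centre and the exit tunnel, and the small subunit decodes the messenger RNA. Proximal tubule cells, which fill most of the cortex, are rich in mitochondria and depend on oxidative phosphorylation for transport. Symbols and structure do not match throughout: the human proteins MRPS30 and MRPS18A sit in the large subunit despite their names, and MRPS36 belongs to the 2-oxoglutarate dehydrogenase complex of the citric acid cycle.

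The libraries held between 10865860 and 14350425 counts. Levels are in CPM, counts scaled to library size with TMM factors, and the lowest count of any member in a library was 25, for Mrpl23. Markers of the proximal tubule were present in every library, their 8 genes summing to 4288 to 11740 CPM in congested kidneys and 6229 to 12840 CPM in IRI kidneys. Summed tubular injury markers, 6 genes, ran from 10690 to 64150 CPM in congested kidneys and from 6135 to 46790 CPM in IRI kidneys. Spp1 made up most of this sum, with 59192 CPM in congested replicate 1 and 40162 CPM in IRI replicate 1. The fitted log2 fold change, congested IRI minus IRI, was below 0 for 4 of these 6 genes and above 0 for 2. In both groups replicate 1 had the lowest proximal tubule sum and the highest injury sum.

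No mitoribosomal gene differed between congested IRI and IRI kidneys at an adjusted p under 0.05 (edgeR quasi-likelihood test, Benjamini-Hochberg over all 14398 features), and 0.0% of all tested features did. The smallest adjusted p of a member was 0.935, which was also the smallest of any feature. All 77 fitted log2 fold changes nevertheless lay below 0, where 50.3% of all tested features did. Short genes lay mostly below 0 as well. Among other features with a longest annotated transcript under 1000 bases, 88.2% were below 0. From 1000 to under 1500 bases 85.8% were, and 45 of the 77 members are shorter than 1500 bases. The median log2 fold change was -0.47 for Mrpl genes, with a range of -0.82 to -0.03, and -0.42 for Mrps genes, with a range of -0.76 to -0.08. The median over all tested features was -0.004. A log2 fold change of -0.5 or below was found for 22 Mrpl and 9 Mrps genes, against a background of 9.04% of features. Fewer cells of a type and less RNA per cell cannot be told apart in bulk tissue.

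Single genes were estimated with a median standard error of 0.28 on the log2 scale. At an unadjusted p under 0.05, 7 members were lower, 3 Mrpl (Mrpl34, Mrpl18 and Mrpl51) and 4 Mrps (Mrps12, Mrps21, Mrps36 and Mrps24), and 0 were higher. The same cut took 1.02% of all features on the lower side, and 288 features in either direction. DESeq2 and limma-voom called 0 features as well and placed 9 and 5 members at an unadjusted p under 0.05. Over all features in either direction these counts were 355 and 281. With a block for replicate number, the edgeR count of such members was 16, all lower, beside 2.99% of features, and the smallest adjusted p of a member was 0.578. That count of 7 became 3, 0 and 1 when congested replicate 1, 2 or 3 was left out. The 288 features in either direction then became 139, 92 and 362. The member count became 2, 0 and 51 when IRI replicate 1, 2 or 3 was left out. The count over all features then became 255, 63 and 2704, so it also rose without IRI replicate 3. The size of the shift also rested on these libraries. Without IRI replicate 1 the medians were -0.23 for Mrpl and -0.19 for Mrps genes, and without IRI replicate 3 they were -0.72 and -0.64.

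**Figure D1:**
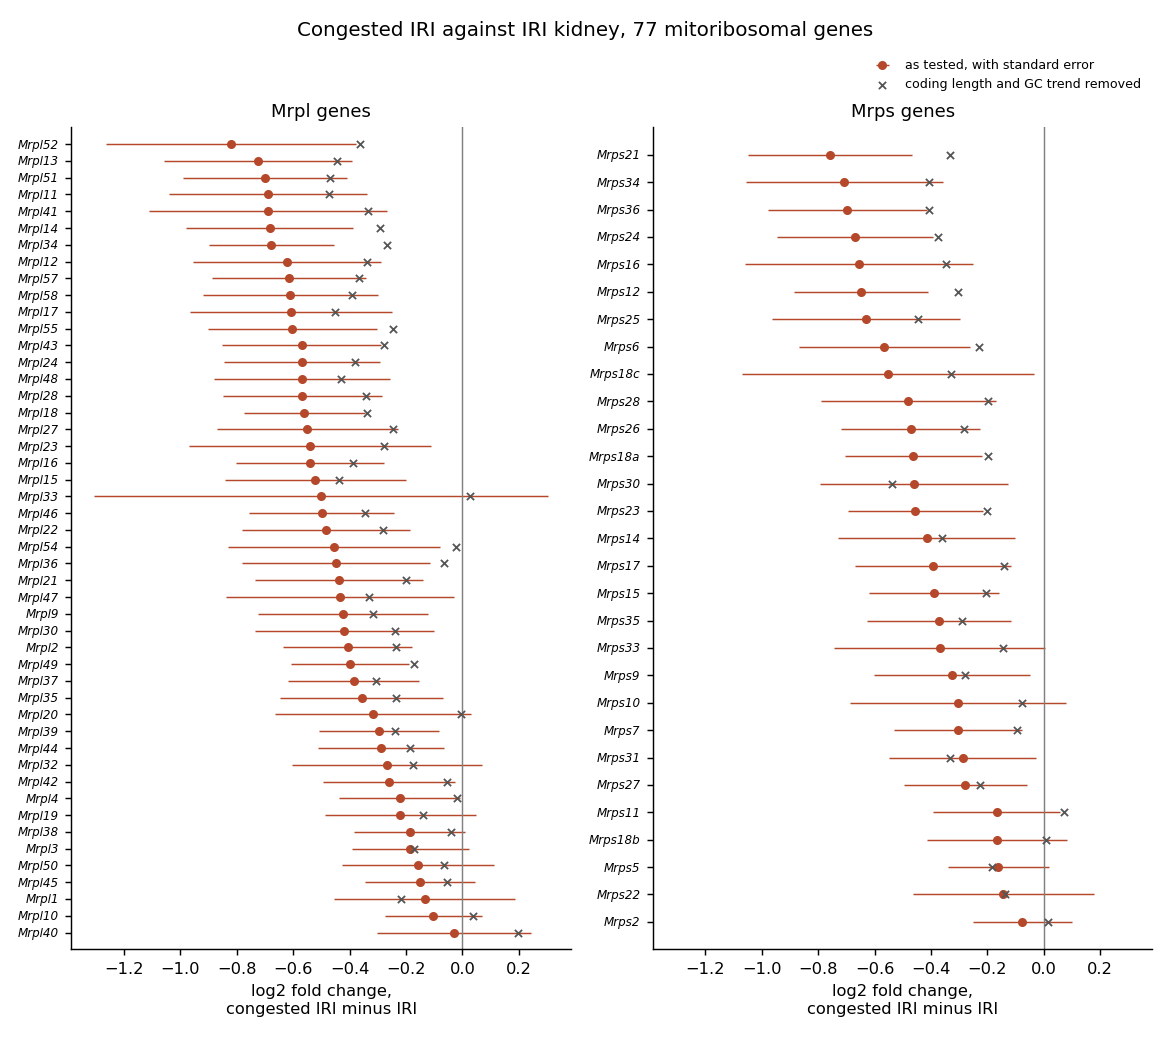
Log2 fold change of each of the 48 Mrpl (left) and 29 Mrps (right) genes, congested IRI minus IRI, from 3 libraries per group. Circles are the edgeR estimates with their standard errors, crosses the estimates after the coding length and GC trend of each library was removed. All 77 circles lie left of 0, and 71 of the 77 crosses do.

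The summed level of the genes showed where the difference arose. The 48 Mrpl genes together came to 3369, 2628 and 2890 CPM in congested replicates 1, 2 and 3, against 5254, 4178 and 2671 CPM in IRI replicates 1, 2 and 3. The 29 Mrps genes came to 1445, 1198 and 1354 CPM in congested kidneys, against 2213, 1930 and 1225 CPM in IRI kidneys. IRI replicates 1 and 2 stood above all 3 congested libraries, and IRI replicate 3 stood among them. Congested kidneys spread little, with a mean of 2962 ± 376 CPM for the Mrpl sum, while IRI kidneys had 4035 ± 1300 CPM (SD, n = 3 each). For the Mrps sum the congested kidneys had 1332 ± 125 CPM and the IRI kidneys 1789 ± 509 CPM.

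Gene by gene the highest library was mostly the same, and the lowest varied. IRI replicate 1 was the highest of the 6 libraries for 60 of the 77 genes and IRI replicate 2 for 16, and congested replicate 1 was the highest for the last gene, Mrpl40. Over all 14398 tested features IRI replicate 1 was the highest for 3710, IRI replicate 2 for 2264 and congested replicate 1 for 2737. Among 84 nuclear respiratory chain genes IRI replicate 1 was the highest for 42 and IRI replicate 2 for 41. The lowest library was congested replicate 2 for 32 genes, congested replicate 1 for 17, congested replicate 3 for 3 and IRI replicate 3 for 25. Over all tested features these libraries were the lowest for 1611, 2809, 1207 and 2650, in the same order. The groups did not overlap, with every congested library below every IRI library, for 6 genes: Mrpl34, Mrpl57, Mrpl18, Mrpl10, Mrps36 and Mrps12. Over all tested features 3.1% were separated in this direction. Of the members 0 were separated the other way, as 3.4% of features were.

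**Figure D2:**
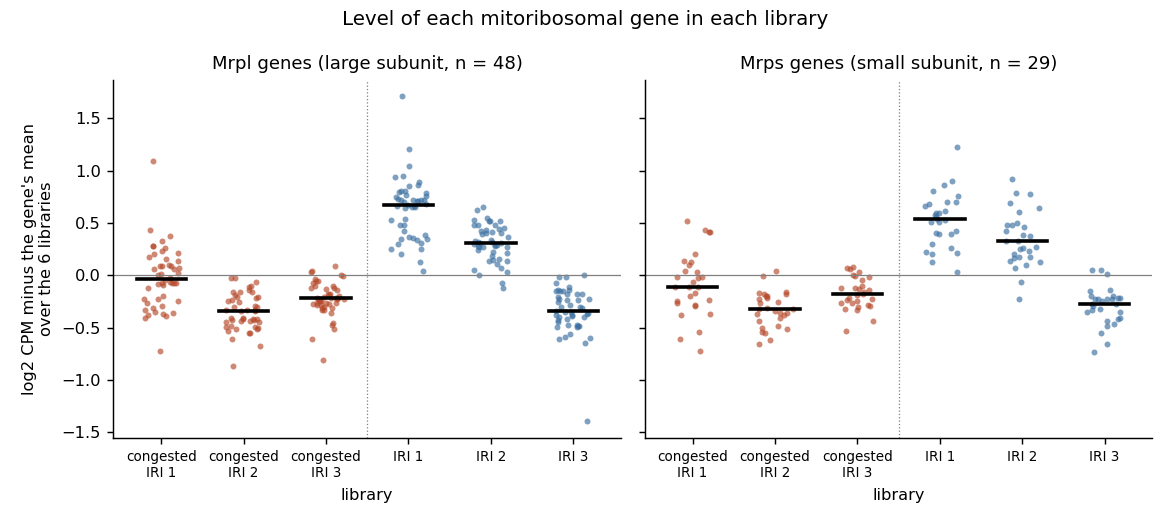
Level of each Mrpl gene (left) and Mrps gene (right) in each library as log2 CPM minus the gene's own mean over the 6 libraries, with congested IRI libraries in red, IRI libraries in blue, and a bar at the median. IRI replicates 1 and 2 lie above the other libraries, and IRI replicate 3 lies with congested replicates 2 and 3.

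Among the large subunit genes the stalk proteins spanned nearly the whole range. The stalk recruits translation factors to the ribosome, with Mrpl10 and Mrpl11 at its base and Mrpl12 as its mobile L7/L12 protein. Per length of the longest annotated coding transcript, Mrpl12 had the highest mean level over the 6 libraries, 250 CPM per kilobase. It stood at 295, 216 and 269 CPM in congested replicates 1, 2 and 3, against 545, 418 and 236 CPM in IRI replicates 1, 2 and 3. The log2 fold change came to -0.62 (SE 0.33), where SE is the standard error of the fit, and IRI replicate 3 fell within the congested values. Mrpl11 had 66.9, 49.0 and 46.2 CPM in congested kidneys, against 119, 94.6 and 47.4 CPM in IRI kidneys, a log2 fold change of -0.69 (SE 0.35). Mrpl10, at chr11:97041560-97049213 of GRCm38, had 59.6, 61.8 and 60.3 CPM in congested kidneys, against 68.3, 63.9 and 62.9 CPM in IRI kidneys. Its groups did not overlap, yet the fold change was only -0.10 (SE 0.17), and Mrpl10 was among the flattest members. Its exons overlap those of Gm11574 on the opposite strand.

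The lowest log2 fold change of all members belonged to Mrpl52, a protein of the large subunit with no bacterial counterpart, at chr14:54426909-54429756. Mrpl52 had 52.6, 35.3 and 32.4 CPM in congested kidneys, against 114, 65.4 and 32.3 CPM in IRI kidneys, a log2 fold change of -0.82 (SE 0.44, adjusted p = 0.935, edgeR). Both replicate 3 libraries had nearly equal values. Mrpl13 followed with a log2 fold change of -0.72 (SE 0.33) and Mrpl51 with -0.70 (SE 0.29). Mrpl13 had 64.3, 60.4 and 59.4 CPM in congested kidneys, against 141, 109 and 54.8 CPM in IRI kidneys. Mrpl51, which like Mrpl52 is found in mitochondrial and not in bacterial ribosomes, had 124, 91.8 and 109 CPM in congested kidneys, against 221, 194 and 113 CPM in IRI kidneys. In Mrpl13 and Mrpl51, as in Mrpl52, IRI replicate 3 sat beside the congested libraries.

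Mrpl34, at chr8:71464959-71465747, had the smallest p of the 77 genes, 0.0167 before and 0.935 after adjustment over all features (edgeR). It encodes a small protein of the large subunit that is conserved from bacteria. Mrpl34 had 43.0, 41.1 and 48.3 CPM in congested kidneys, against 72.3, 84.9 and 54.6 CPM in IRI kidneys. Here all 3 IRI libraries stood above all 3 congested libraries, and the log2 fold change was -0.68 (SE 0.22). Mrpl18, which binds 5S ribosomal RNA in the cytosol and helps its import into human mitochondria, had 56.1, 63.1 and 63.0 CPM in congested kidneys, against 102, 96.8 and 69.6 CPM in IRI kidneys. Its log2 fold change was -0.56 (SE 0.22). Its exons overlap Tcp1 on the opposite strand, and reads of such pairs cannot be told apart without the strand setting of the counting.

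Genes for other working parts of the large subunit lay between -0.61 and -0.03. Mrpl58, also called ICT1, releases peptides from stalled ribosomes, and it had 46.1, 43.7 and 45.4 CPM in congested kidneys, against 88.9, 78.7 and 38.7 CPM in IRI kidneys. Its log2 fold change was -0.61 (SE 0.31). The congested libraries were close together and IRI replicate 3 lay below them. Mrpl45 stands at the exit of the tunnel and ties the ribosome to the inner membrane, and its log2 fold change was -0.15 (SE 0.20). Mrpl44, which has a fold like RNase III, had -0.29 (SE 0.22), and Mrpl3, next to the peptidyl transferase centre, had -0.18 (SE 0.21). Variants of human MRPL44 and MRPL3 cause mitochondrial cardiomyopathy. Mrpl1 of the L1 stalk, where spent transfer RNA leaves, had -0.13 (SE 0.32), and Mrpl40 had -0.03 (SE 0.27), the nearest to 0.

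Besides Mrpl12, the genes with the highest mean levels per length were Mrpl42, with 210 CPM per kilobase, and Mrpl33, with 175 CPM per kilobase. This order holds for the longest annotated transcript. By coding length Mrpl51, with a mean of 142 CPM and 384 coding bases, would stand above Mrpl42, with 140 CPM and 426 coding bases. Mrpl42 had 147, 109 and 125 CPM in congested kidneys, against 169, 170 and 118 CPM in IRI kidneys, a log2 fold change of -0.26 (SE 0.24). Mrpl33, a short protein of the large subunit, differed most between replicate numbers. Mrpl33 had 133, 39.1 and 35.6 CPM in congested kidneys, against 205, 65.6 and 23.7 CPM in IRI kidneys. Replicate 1 was far above replicates 2 and 3 in both groups, and the log2 fold change of -0.50 carried a standard error of 0.80. Its exons overlap Gm43809 on the same strand. By library Mrpl12, Mrpl42 and Mrpl33 could not be ranked. Mrpl33 had 279 CPM per kilobase in congested replicate 1 and 428 in IRI replicate 1, against 224 and 414 for Mrpl12, but stood below Mrpl12 in the other libraries. Mrpl12 and Mrpl42 had 164 CPM per kilobase each in congested replicate 2. The lowest mean level per length was that of Mrpl23, 4.84 CPM per kilobase.

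**Figure D3:**
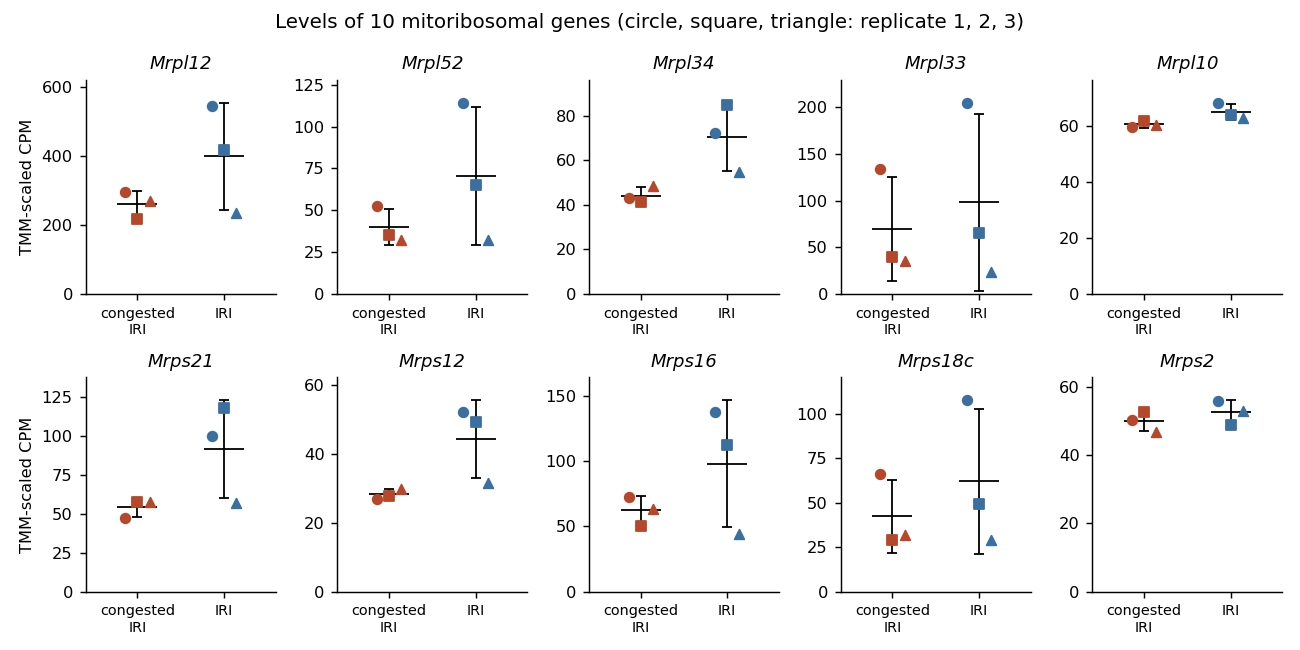
TMM-scaled CPM of 5 Mrpl (top) and 5 Mrps genes (bottom) in congested IRI (left, red) and IRI kidneys (right, blue), with the mean and SD of 3 libraries in black. Circles, squares and triangles mark replicates 1, 2 and 3. Mrpl34, Mrpl10 and Mrps12 show groups that do not overlap, and Mrpl33 and Mrps18c show high values in replicate 1 of both groups.

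Among the small subunit genes Mrps21 had the lowest fold change and the highest level per length, 150 CPM per kilobase. Mrps21, at chr3:95862634-95871519, had 47.2, 57.4 and 58.0 CPM in congested kidneys, against 99.95, 118 and 57.0 CPM in IRI kidneys. Its log2 fold change was -0.76 (SE 0.29), with an unadjusted p of 0.0333 and an adjusted p of 0.935 (edgeR). IRI replicate 3 again lay within the congested values. Mrps12, the protein at the decoding centre, is at chr7:28739641-28741820. It had 27.0, 27.9 and 29.9 CPM in congested kidneys, against 52.2, 49.4 and 31.5 CPM in IRI kidneys. Every congested library was below every IRI library, and the log2 fold change was -0.65 (SE 0.24, unadjusted p = 0.0267, adjusted p = 0.935, edgeR).

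Several small subunit genes are known for mitochondrial disease in people who carry variants of them, and their values spread widely. Mrps16 had 72.6, 50.5 and 63.4 CPM in congested kidneys, against 138, 112 and 44.1 CPM in IRI kidneys, a log2 fold change of -0.66 (SE 0.40). Its lowest and highest values were both IRI libraries. Mrps34 was a gene of low level, with 5.46, 7.24 and 9.24 CPM in congested kidneys against 10.6, 17.1 and 8.20 CPM in IRI kidneys. Its log2 fold change was -0.71 (SE 0.35), and its exons overlap Mapk8ip3 and Nme3. Mrps7, which binds the head of the small subunit, had -0.30 (SE 0.23), and Mrps22 had -0.14 (SE 0.32). Mrps22 had 78.2, 46.5 and 49.1 CPM in congested kidneys, against 90.4, 50.2 and 51.3 CPM in IRI kidneys, so that replicate 1 was high in both groups.

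Mrps24 had 54.2, 39.8 and 47.9 CPM in congested kidneys, against 94.9, 80.5 and 50.2 CPM in IRI kidneys. Its log2 fold change was -0.67 (SE 0.28), its exons overlap Urgcp on the same strand, and IRI replicate 3 lay among the congested libraries. Mrps6 followed Mrps21 in level per length, with 105 CPM per kilobase and a log2 fold change of -0.57 (SE 0.30). At the other end stood Mrps5, which lines the path of the messenger RNA, with a log2 fold change of -0.16 (SE 0.18), and Mrps2 with -0.08 (SE 0.17). Mrps2 had 50.2, 52.5 and 46.8 CPM in congested kidneys, against 55.8, 48.9 and 52.7 CPM in IRI kidneys. The groups of Mrps2 overlapped, with a congested library lowest and IRI libraries the 2 highest.

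The 3 relatives of bacterial S18 went apart in level and spread. Mrps18a, found in the large subunit of the human ribosome, had a log2 fold change of -0.46 (SE 0.24). Mrps18b had -0.17 (SE 0.25). Mrps18c had 65.8, 29.2 and 31.7 CPM in congested kidneys, against 107, 49.2 and 29.2 CPM in IRI kidneys, a log2 fold change of -0.55 (SE 0.52) with replicate 1 high in both groups. Mrps30, also a large subunit protein, had 53.4, 43.0 and 41.1 CPM in congested kidneys, against 94.4, 56.6 and 38.2 CPM in IRI kidneys, a log2 fold change of -0.46 (SE 0.33). Mrps36, the subunit of 2-oxoglutarate dehydrogenase, had 6.72, 9.14 and 8.69 CPM in congested kidneys, against 11.9, 17.6 and 10.3 CPM in IRI kidneys, with groups that did not overlap and a log2 fold change of -0.70 (SE 0.28). Pseudogenes of Mrps36 are listed as rows of their own, so its reads may be split. Moving Mrps30 and Mrps18a to the large subunit and leaving Mrps36 out gave medians of -0.46 over 50 large subunit genes and -0.39 over 26 small subunit genes.

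Within replicate numbers the genes did not move alike. In replicate number 1 the median log2 difference, congested IRI minus IRI, was -0.67 for Mrpl and -0.65 for Mrps genes, and 47 of 48 and 29 of 29 were below 0, beside 49.7% of features. In replicate number 2 the medians were -0.67 and -0.62, with 48 of 48 and 28 of 29 below 0, beside 49.5% of features. In replicate number 3 the medians were 0.12 and 0.14, and only 10 of 48 and 6 of 29 were below 0, beside 50.4% of features. The pattern of lower in numbers 1 and 2 but higher in number 3 was met by 60 of the 77 genes, 37 Mrpl and 23 Mrps. No share over all tested features is given for this pattern, and other short genes had it in their medians. Genes outside the members with a longest transcript under 1000 bases had -0.66, -0.70 and 0.15 in numbers 1, 2 and 3. Lower in all 3 numbers were 15 genes, 10 Mrpl and 5 Mrps, where 13.1% of all tested features were. Mrpl40 was the only Mrpl gene above 0 in number 1, with differences of 0.02, -0.39 and 0.29 in replicate numbers 1, 2 and 3.

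A test of the replicate number itself, in the fit with group, called 2 of the 77 genes, beside 7.95% of all features. They were Mrpl33, with an adjusted p of 0.0105, and Mrps18c, with an adjusted p of 0.0285 (edgeR). Mrps21 and Mrps12, both far down in the comparison of groups, had adjusted p of 0.555 and 0.732 for the number. What a replicate number stands for is not given in the labels.

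Short transcripts moved with the same libraries. Over the 13739 tested features with an annotated transcript, the log2 length of the longest one (the longest coding one where a gene had any) and the log2 fold change correlated with a Pearson r of 0.538 and a Spearman rho of 0.589, across genes that share the 6 libraries. Within replicate numbers 1, 2 and 3 the Pearson r was 0.503, 0.575 and -0.2. The median length of the members was 1339 bases, 1368 for Mrpl and 1197 for Mrps genes, against 3033 bases over all tested features. The longest annotated transcript can hold long untranslated ends, as for Mrpl51 with 3427 bases of transcript and 384 bases of coding sequence. Coding lengths of the members ran from 195 bases for Mrpl33 to 1326 bases for Mrps30, with a median of 588 bases against 1398 over all tested features. Across the 77 members the log2 fold change correlated with log2 length of the longest transcript at a Pearson r of 0.247 and a Spearman rho of 0.297. With log2 coding length the members gave a Pearson r of 0.559 and a Spearman rho of 0.564, and the 12637 tested features with a coding length gave 0.433 and 0.477.

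Other short genes lay near the members, and other long genes did not. Where the longest transcript was under 1000 bases, the median log2 fold change was -0.55 for 23 members and -0.48 for 1022 other genes. From 1000 to under 1500 bases it was -0.40 for 22 members and -0.33 for 1224 others. From 2000 to under 3000 bases it was -0.36 for 8 members and -0.07 for 2949 others, and from 3000 to under 4000 bases -0.40 for 8 members and 0.05 for 2454 others. Binned by coding length instead, 66 members under 1000 bases had a median of -0.48 and 3909 other genes one of -0.20. These medians were not tested against each other.

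**Figure D4:**
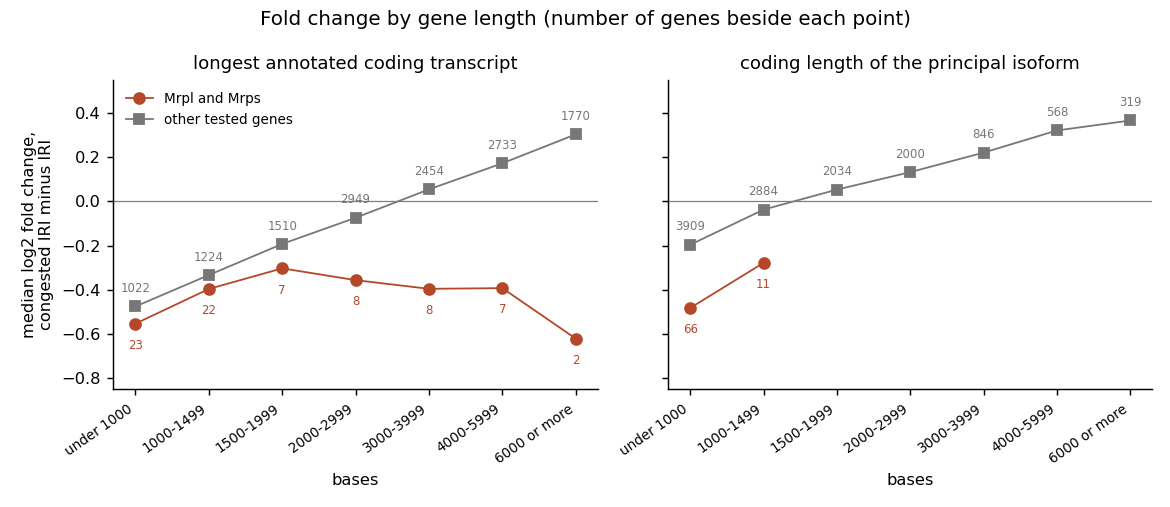
Median log2 fold change, congested IRI minus IRI, of the mitoribosomal genes (red) and of all other tested genes (grey) in bins of the longest annotated coding transcript (left) and of the coding length (right), with the number of genes beside each point. Other genes climb from -0.48 under 1000 bases to 0.30 at 6000 bases or more on the left, while the members stay below 0 in every bin they fill.

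Removing a smooth trend of length and GC content from each library shrank the shift of the members, and their medians stayed below 0. Neither form of this step removed every relation with length. With the longest transcript the medians became -0.22 for Mrpl and -0.17 for Mrps genes, and 40 of 48 and 24 of 29 were below 0, beside 52.9% of features. Across the members the remaining log2 fold change correlated with log2 transcript length at a Pearson r of -0.688. From 1000 to under 1500 bases its median was -0.08 for members and -0.04 for other genes. From 3000 to under 4000 bases it was -0.49 and -0.0045. With coding length the medians became -0.26 for Mrpl and -0.23 for Mrps genes, with 45 of 48 and 26 of 29 below 0, beside 54.5% of features. Over the 13739 tested features with an annotated transcript, a Pearson r of 0.267 with log2 transcript length then remained. By coding length the medians in replicate numbers 1, 2 and 3 were -0.45, -0.35 and 0.02 for Mrpl genes and -0.38, -0.39 and 0.07 for Mrps genes. Mrpl52 kept a log2 fold change of -0.36, Mrps21 of -0.33, Mrpl12 of -0.34 and Mrps12 of -0.30 after this step. Mrpl33 came to 0.03, Mrpl10 to 0.04 and Mrpl40 to 0.20. The part of RNA quality or library preparation in the relation with length was not tested.

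Lists of genes that build, feed or regulate the mitochondrial ribosome had medians between -0.24 and 0.03, apart from its proteins with no Mrp symbol. The edgeR test called 0 members of these lists in either direction. Each list held 0 or 1 gene at an unadjusted p under 0.05, beside 288 of all 14398 features. The proteins with no Mrp symbol had a median log2 fold change of -0.54 over 5 genes, from Gadd45gip1 with -0.65 (SE 0.31) to Ptcd3 with 0.04 (SE 0.18). Dap3, the GTP-binding protein of the small subunit, had 75.1, 82.5 and 88.2 CPM in congested kidneys, against 141, 135 and 82.2 CPM in IRI kidneys, and a log2 fold change of -0.54 (SE 0.25). IRI replicates 1 and 2 were its highest libraries, as for the Mrps sum.

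Assembly factors had a median of -0.15 with 18 of 24 below 0. They ran from Malsu1, which keeps the subunits apart until the large one is complete, with -0.86 (SE 0.39), to Mettl15, a methyltransferase of small subunit RNA, with 0.18 (SE 0.25). Malsu1 had 29.1, 18.6 and 20.5 CPM in congested kidneys, against 64.0, 37.5 and 22.3 CPM in IRI kidneys. Translation factors had a median of -0.14 with 11 of 13 below 0, between Mtif3 with -0.61 (SE 0.22) and Mtif2 with 0.14 (SE 0.19), both initiation factors. Mtif3 had 28.9, 27.4 and 29.2 CPM in congested kidneys, against 46.2, 51.7 and 33.0 CPM in IRI kidneys, with groups that did not overlap. Mitochondrial aminoacyl-tRNA synthetases and the related amidotransferase had a median of -0.15 with 16 of 20 below 0, between Fars2 with -0.43 (SE 0.27) and Mars2 with 0.18 (SE 0.24).

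Chaperones and proteases of the matrix and inner membrane had a median of -0.24 over 13 genes, from Grpel1 with -0.57 (SE 0.25) to Yme1l1 with 0.40 (SE 0.34). Genes of mitochondrial transcription and its regulators had a median of 0.03 with 7 of 17 below 0. Tfam, which packs mitochondrial DNA and starts its transcription, was the lowest with -0.39 (SE 0.21). Tfam had 62.2, 69.4 and 70.3 CPM in congested kidneys, against 102, 91.2 and 71.4 CPM in IRI kidneys, and its groups did not overlap. Tfb2m, the partner of the mitochondrial RNA polymerase, was the highest with 0.29 (SE 0.24). These related lists have median longest transcripts of 1857.5 to 3656 bases, against 1339 for the members. After removal of the coding length trend the medians were -0.19 for assembly factors, -0.10 for translation factors and -0.24 for synthetases. They were -0.30 for chaperones and proteases, -0.03 for transcription and -0.30 for the proteins with no Mrp symbol, beside -0.25 for the 77 members.

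The nuclear genes of the respiratory chain had a median log2 fold change of -0.63, with 83 of 84 tested genes below 0, 13 at an unadjusted p under 0.05 and 0 called. Cytoplasmic ribosomal protein genes had -0.56, with 79 of 81 below 0 and 0 at an unadjusted p under 0.05. Over all 14398 tested features 50.3% lay below 0, and 288 had an unadjusted p under 0.05 (edgeR). Within replicate numbers 1, 2 and 3 the respiratory chain medians were -0.87, -0.93 and 0.13, and those of the cytoplasmic ribosome were -0.79, -0.85 and 0.31. Both groups are made of short genes, with median longest transcripts of 865 and 887 bases. After removal of the coding length trend the medians were -0.35 for the respiratory chain and -0.25 for the cytoplasmic ribosome, beside -0.25 for the 77 mitoribosomal genes together. No test set these groups against each other, and nothing here is shown to be particular to the mitoribosomal genes.

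**Figure D5:**
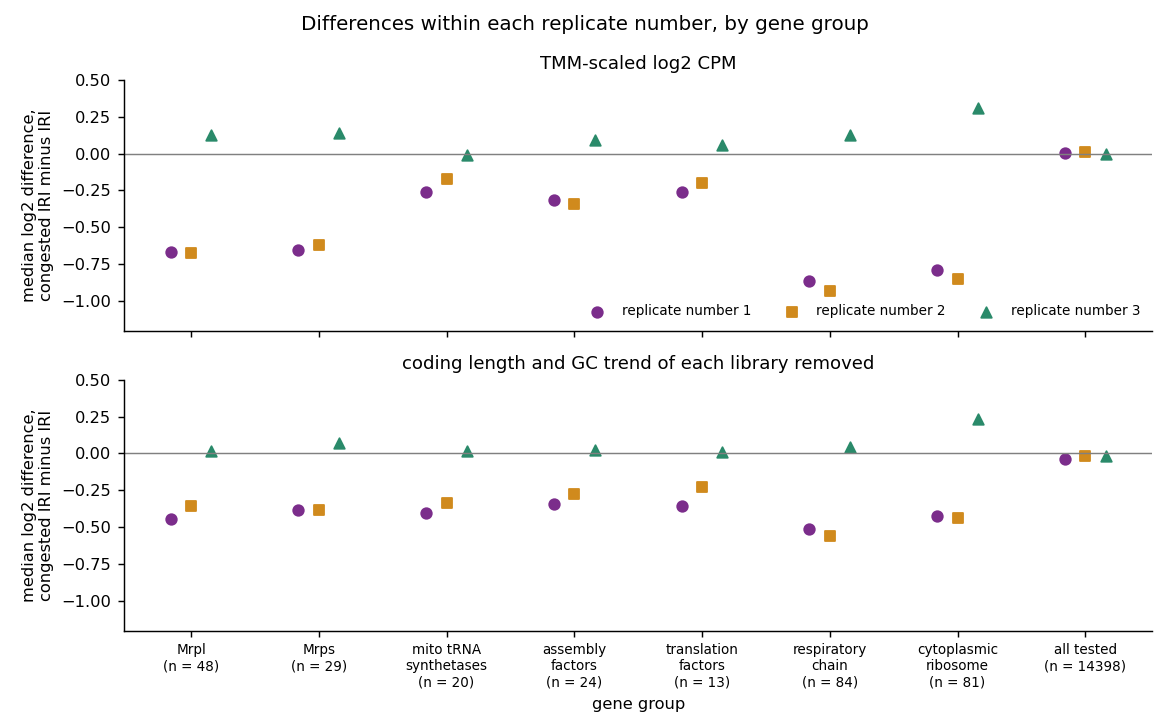
Median log2 difference, congested IRI minus IRI, within replicate numbers 1 (circle), 2 (square) and 3 (triangle) for the mitoribosomal genes and 5 other gene groups beside all tested features, before (top) and after (bottom) the coding length and GC trend of each library was removed. For Mrpl and Mrps genes numbers 1 and 2 lie near -0.67 to -0.62 at the top and number 3 lies above 0, and the distance between them narrows at the bottom.

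Markers of infiltrating cells also differed between these libraries. The summed level of 6 neutrophil markers was 221, 16.1 and 7.76 CPM in congested replicates 1, 2 and 3, against 74.0, 8.61 and 4.94 CPM in IRI replicates 1, 2 and 3. The 10 monocyte and macrophage markers summed to 331, 98.9 and 108 CPM in congested kidneys, against 106, 95.3 and 109 CPM in IRI kidneys. None of the listed markers was at 0 in all libraries. Distal and collecting duct markers, 6 genes, summed to 403, 1196 and 1237 CPM in congested kidneys, against 836, 1749 and 1476 CPM in IRI kidneys. The part of cell makeup in the levels of the mitoribosomal genes was not tested.

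The stretches before their starts were searched for short motifs. RefSeq windows of 300 bases around the start (GRCm38.p6) were found for 68 of the 77 genes, and for 10669 tested genes in all. The palindromic core motif of NRF1 was in 4.41% of the members' windows and 1.87% of all windows. CCGGAAG, a site of ETS factors such as GABPA, was in 35.3% against 17.6%, and AAGATGGC, a site of YY1, was in 17.6% against 4.56%. CCAAT was in 38.2% against 38.4%. Both strands were read for these exact letters only, so looser forms of a site were not counted, and no motif contains another. These are matches of letters and say nothing of binding.

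Only genes with at least 100 bases before the start clear of any exon annotated by GENCODE were considered. For each subunit the stretch is shown for the gene with the smallest p and for the gene with the log2 fold change nearest 0. Capitals mark the motif matches, each stretch ends at the base before the RefSeq start, and all are given 5′ to 3′ on the strand of the gene in GRCm38.p6.
Mrpl34, chr8:71464676-71464925, plus strand: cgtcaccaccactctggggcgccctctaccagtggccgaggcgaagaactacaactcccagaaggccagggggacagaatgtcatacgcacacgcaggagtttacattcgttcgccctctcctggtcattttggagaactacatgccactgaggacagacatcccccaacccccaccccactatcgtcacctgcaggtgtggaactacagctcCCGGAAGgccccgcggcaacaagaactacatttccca
Mrpl45, chr11:97315466-97315715, plus strand: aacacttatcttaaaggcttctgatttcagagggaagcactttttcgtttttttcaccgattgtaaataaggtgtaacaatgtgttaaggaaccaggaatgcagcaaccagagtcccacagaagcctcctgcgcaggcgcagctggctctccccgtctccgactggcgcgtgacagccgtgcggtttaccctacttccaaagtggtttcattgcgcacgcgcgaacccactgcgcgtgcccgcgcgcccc
Mrps12, chr7:28741822-28741991, minus strand: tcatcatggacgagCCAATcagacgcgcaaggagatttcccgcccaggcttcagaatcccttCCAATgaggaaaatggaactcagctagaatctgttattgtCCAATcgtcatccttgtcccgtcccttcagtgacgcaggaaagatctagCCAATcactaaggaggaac
Mrps2, chr2:28467816-28468065, plus strand: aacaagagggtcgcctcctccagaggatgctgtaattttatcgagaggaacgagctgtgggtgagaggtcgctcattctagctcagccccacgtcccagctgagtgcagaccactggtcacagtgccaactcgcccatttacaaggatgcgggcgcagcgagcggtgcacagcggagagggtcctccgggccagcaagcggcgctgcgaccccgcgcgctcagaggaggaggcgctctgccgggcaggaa
Mrpl34 has an ETS match near its start, and Mrps12 has 4 CCAAT matches. The RefSeq start of Sars2, on the other strand, lies 147 bases from that of Mrps12 and thus inside the stretch shown. The CCAAT match farthest from Mrps12 lies past that start, and the stretch is shared by both genes. Mrpl45 and Mrps2 hold none of the 4 motifs in the exact letters searched, and looser forms were not looked for. The 4 genes were picked by p and fold change, and a link between motifs and fold change was not tested.

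Many mitoribosomal genes start back to back with a neighbour. A partner on the other strand within 500 bases was found for 20 of 68 members, or 29.4%, against 10.4% of 10112 tested protein-coding genes. The median log2 fold change was -0.41 for these members and -0.08 for their partners, and 15 of the 20 members were lower than the partner. Mrps11 and Mrpl46 are partners of each other and count on both sides. All members already lay below 0, transcript length was not allowed for here, and members and partners were not tested against each other. Mrps12 and Sars2, the mitochondrial seryl-tRNA synthetase gene, start 147 bases apart and had -0.65 and -0.30. Mrps11 and Mrpl46 start 42 bases apart, so that 1 pair joins both subunits, and had -0.17 and -0.50. Mrps11 came to 0.070 once the coding length trend was removed. Mrpl47 starts 308 bases from Ndufb5 of respiratory complex I, and they had -0.43 and -0.60. Exons of 32 members overlap another gene, 27 of them on the opposite strand.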

How the data were processed

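Kidney cortex RNA of 6 mouse samples was prepared with a stranded, poly(A)-selecting kit, per the labels' protocols. The deposited table holds raw counts of reads per gene, as its values show. Per the submitters' processing notes, STAR 2.7.10a, featureCounts, Subread and GRCm38 were used. The sources used here give neither the annotation nor the strand setting. Samples were grouped by their labels, 3 congested IRI and 3 IRI libraries, and depth ranged from 10865860 to 14350425 counts.

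Counts were fitted over all features with edgeR 4.0.16 in R 4.3.3 (TMM factors, 10 or more counts in 3 libraries, robust quasi-likelihood F test of group, Benjamini-Hochberg adjustment, called at 0.05). The steps were tested on simulated data. There the fit without a replicate block called only 4.12% of features changed 2-fold and 67.4% of those changed 4-fold. With the block these shares were 47.4% and 93.5%. An absence of calls is thus weak evidence for changes of 2-fold or less. Within-number differences used log2 CPM with a prior count of 2. Lengths and GC content came from GENCODE annotation of GRCm38, which held all 77 genes, and their trend in each library was fitted with mgcv 1.9.3 (basis dimension 6) and removed as an offset. Promoter windows came from RefSeq. Figures were drawn with matplotlib 3.10.9. No pair of replicates agreed within sampling noise, as the chi-square over its degrees of freedom was 18.7 to 192.

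The labels give both groups the numbers 1 to 3. Deviations from group means correlated at 0.719, 0.342 and 0.427 between libraries of equal number, so equal numbers were treated as pairs. The labels do not explain the numbers, and the pairing rests on the same counts that were tested. Congested replicate 3 correlated with IRI replicate 2 at 0.395, above the 0.342 within number 2. Congested replicate 2 correlated with IRI replicate 3 at 0.242. The pairing of numbers 2 and 3 is thus uncertain.

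Named genes were the 4 lowest and 4 highest log2 fold changes and the 3 highest levels per length in each subunit, members with fixed roles, called members, and the lowest and highest gene of each related list. Mrpl34, Mrpl18, Mrpl57, Mrpl23, Dap3 and the divergent pairs were chosen for naming from their values. The members and lists were chosen with earlier results of these data known. Alternatives were other scalings, filters and tests (DESeq2 1.42.0, limma 3.58.1), the replicate block, the length trends and leaving out libraries. Trends by principal isoform and by coding length were chosen after seeing the data.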

Additional observations from a re-analysis of the deposited data

How the results depend on the processing

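The median log2 fold changes stayed below 0 under every alternative run, between -0.72 and -0.22 for Mrpl and between -0.65 and -0.17 for Mrps genes, and 0 members were called under any of them. The replicate block gave medians of -0.40 and -0.37 in edgeR with 0 features called, and 10 features, none of them a member, in DESeq2, and it changed no other call. The replicate number was called for 5 members once the length trend was removed. No share over all features is given for that fit, so nothing is drawn from this count. With total counts only, the median of all features moved to 0.095, beside -0.34 for Mrpl and -0.30 for Mrps genes.

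Of 36 named members, 11 had a log2 fold change above 0 under some alternative, and the cause was not tested. With total counts only these were Mrpl10 with 0.0017, Mrpl40 with 0.081 and Mrps2 with 0.027. With the trend of the longest transcript removed, without and with the replicate block, they were Mrpl10 (0.077 and 0.085), Mrpl40 (0.26 and 0.24), Mrpl42 (0.11 and 0.12), Mrpl33 (0.079 and 0.14), Mrps18b (0.17 and 0.17), Mrps22 (0.13 and 0.13), Mrps11 (0.15 and 0.15) and Mrps2 (0.036 and 0.041). With merged exon length they were Mrpl10 (0.11), Mrpl40 (0.21), Mrps18b (0.036), Mrps11 (0.012) and Mrps2 (0.0096). With coding length, without and with the block, they were Mrpl10 (0.038 and 0.042), Mrpl40 (0.20 and 0.18), Mrpl33 (0.027 and 0.085), Mrps18b (0.0084 and 0.012), Mrps11 (0.070 and 0.065) and Mrps2 (0.014 and 0.017). With the principal isoform they were Mrpl10 (0.039 and 0.043), Mrpl40 (0.22 and 0.20), Mrpl42 (0.066 and 0.079), Mrpl33 (0.022 and 0.095), Mrps18b (0.13 and 0.13), Mrps11 (0.12 and 0.12) and Mrps22 (0.077 and 0.081). Leaving out libraries gave ranges of -0.34 to 0.24 for Mrpl1 (0.029 without number 1), -0.25 to 0.16 for Mrpl40 (0.13 without number 2), -1.38 to 0.64 for Mrpl33, -0.35 to 0.028 for Mrps18b, -0.42 to 0.19 for Mrps22, -1.02 to 0.11 for Mrps18c, -0.74 to 0.053 for Mrpl47 and -0.39 to 0.050 for Mrps11 (0.050 without number 2). With 3 libraries a group, median standard errors of 0.28 limit what a single gene can show.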
